A study of Mus musculus with 12 samples.

Results

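The 33 genes described here are markers of the glia of the mouse dorsal root ganglion, listed by symbol as known markers, with earlier results of these data in view. A first set of 18 belongs to the myelinating Schwann cell. The other 15 mark satellite glia and non-myelinating Schwann cells. Of the 33, 30 had a probe with that symbol in the platform annotation, with 40 probes among the 25697 on the array. Prx, Sox10 and Erbb3 had no named probe here. After the filter on dim probes, 27 genes with 37 probes were tested, 15 of the myelin set and 12 of the satellite set, among 9223 tested genes. Gjb1, Gjc3 and Gfap stayed below that filter.

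Each single-colour Illumina BeadChip array carried total RNA of pooled ganglia from lumbar levels 3 to 6 of 15-day-old mice on a mixed C57/BL6 and 129Ola background. The control group was 6 pools of the genotype labelled wildtype. The mutant group was 6 pools of Isl1-Cre//c-Maf mutants, conditional mutants in which Cre driven by Isl1 acts on Maf. Isl1 is a transcription factor of sensory neurons, so the model is aimed at neurons. Whether Maf was also lost in the glia described here was not tested. The labels do not say whether controls carried Cre or a floxed Maf allele. They also leave out the number of mice per pool, and the p-values therefore describe only the spread between pools, which may be technical.

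Schwann cells wrap the axons of sensory neurons, and those that myelinate switch on a gene programme led by the transcription factors Pou3f1 (Oct6), Egr2 (Krox20) and Sox10 in response to axonal Neuregulin. Satellite glia form a thin sheath around each neuronal cell body, where they clear glutamate and buffer potassium. Both arise from the neural crest, and several of their markers, among them S100b and Sox10, are shared.

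The arrays detected between 12822 and 13491 probes each at p under 0.05, and correlations between arrays ran from 0.976 to 0.992. Mutant replicate 3 had the lowest mean correlation with the other arrays, 0.980. Maf was detected in 6 of 6 control pools, at 7.44 ± 0.29 (SD, n = 6) on the log2 intensity scale, and in 0 of 6 mutant pools, at 4.57 ± 0.08 (SD, n = 6). Y-linked Eif2s3y was detected in 3 of 6 pools of each group. Levels below are normalised log2 intensities, and differences are mutant minus control on that scale. A probe's level is not comparable with another probe's.

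No glial gene passed the test. Of the 27 genes, 0 had an adjusted p under 0.05 (limma with Benjamini-Hochberg adjustment over all probes), against 0.235% of all probes tested. The smallest adjusted p was 0.14 in the satellite set, for S100b, and 0.52 in the myelin set, for Mbp. The differences were small and mostly on the same side of 0. The myelin set had 12 of 15 genes lower in the mutant mean, with a median difference of -0.13, or 0.913 times the control level. The satellite set had 10 of 12 lower, with a median of -0.14, or 0.906 times the control level. Single pools moved these medians: the myelin median was -0.22 without mutant replicate 2 and -0.20 without control replicate 6, and the satellite median was -0.075 without mutant replicate 3. The satellite median was -0.21 on BeadChip 1 alone and -0.088 on BeadChip 2 alone. Over all tested genes 49.0% lay below 0 and the median was 0.0030. Some further lists described below leaned the same way and others did not. Below 0 were 9 of 11 fibroblast genes, 12 of 15 of Neuregulin and ErbB signalling and 10 of 14 of the node. The counts were 17 of 32 further myelin genes, 9 of 17 further satellite genes, 8 of 19 neuron genes and 1 of 13 macrophage genes. At an unadjusted limma p under 0.05, 3 myelin genes (Mbp, Pmp2 and Drp2) and 3 satellite genes (S100b, Slc1a3 and Ednrb) were lower, against 3.87% of all genes. At the same p, 0 glial genes were higher, against 2.63% of all genes. The genes of a set come from the same pools and many from the same cells, so these counts do not add up independent observations. For a gene lower in the mutant mean, whole ganglia do not tell fewer glial cells from less RNA per glial cell. The part of other cells in these values was not tested.

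**Figure D1:**
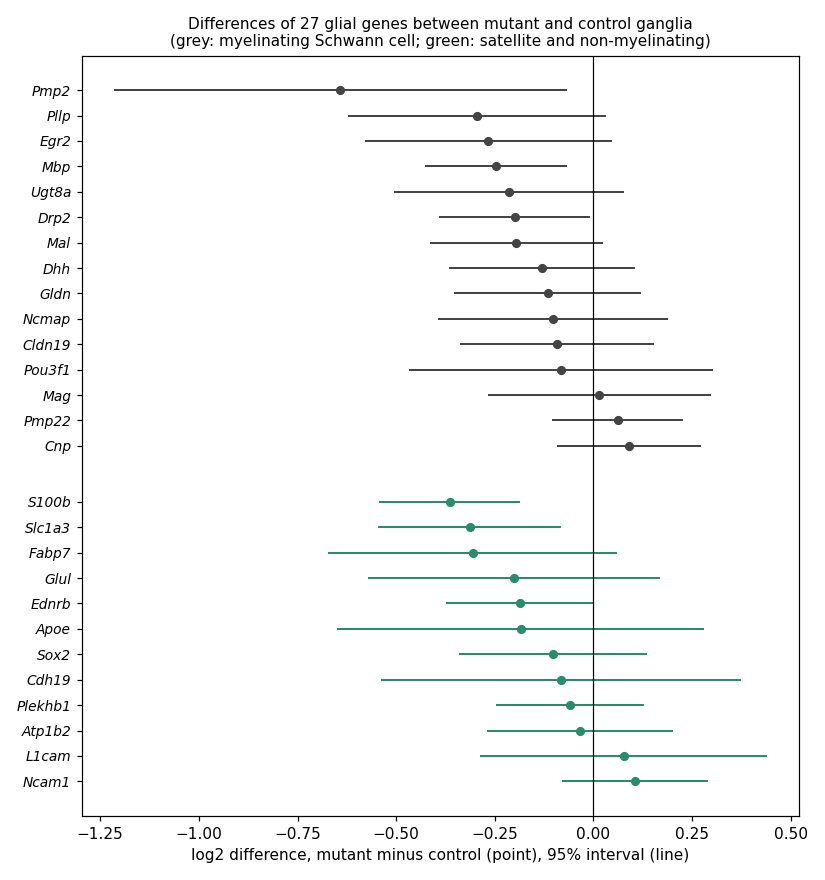
Difference between mutant and control pools for each of the 27 tested glial genes, on the log2 scale, with 95% intervals from the limma fit (6 pools against 6), the myelin and satellite genes in separate groups. Points left of 0 are lower in the mutant pools: 12 of 15 myelin genes and 10 of 12 satellite genes, and Pmp2 has the widest interval, -1.21 to -0.07.

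The 6 genes with an unadjusted limma p under 0.05 include 3 of the satellite set, those with the smallest p of that set. The promoters of these 3 are printed from the RefSeq table of assembly GRCm38.p6. Of the 3 myelin genes, Pmp2 and Drp2 have no promoter there and are named only, and the promoter of Mbp is not printed. Each window runs from 250 bases before to 50 bases after the annotated start, on the gene's strand. S100b lies at chr10:76253586-76253885 on the plus strand, Slc1a3 at chr15:8710758-8711057 on the minus strand and Ednrb at chr14:103843652-103843951 on the minus strand. Capitals mark a match, on either strand, to a motif that was searched for. The letters TGCTGA belong to the recognition element of Maf proteins. Sox proteins bind cores such as ACAAAG, and a further core searched was ACAATG. The site of Egr factors was searched as GCGTGGGCG, and the TATA box as TATAAA.
S100b: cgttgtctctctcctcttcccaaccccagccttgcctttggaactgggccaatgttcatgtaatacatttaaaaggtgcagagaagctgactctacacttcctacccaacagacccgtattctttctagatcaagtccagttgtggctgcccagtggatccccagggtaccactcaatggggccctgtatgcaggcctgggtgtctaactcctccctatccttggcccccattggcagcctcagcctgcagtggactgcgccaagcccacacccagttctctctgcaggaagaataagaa
Slc1a3: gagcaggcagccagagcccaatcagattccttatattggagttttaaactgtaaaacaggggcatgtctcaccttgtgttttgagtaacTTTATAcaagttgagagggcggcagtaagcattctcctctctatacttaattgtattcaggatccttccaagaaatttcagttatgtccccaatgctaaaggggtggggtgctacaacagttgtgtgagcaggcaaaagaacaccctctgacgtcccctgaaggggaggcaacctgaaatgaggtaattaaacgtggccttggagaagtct
Ednrb: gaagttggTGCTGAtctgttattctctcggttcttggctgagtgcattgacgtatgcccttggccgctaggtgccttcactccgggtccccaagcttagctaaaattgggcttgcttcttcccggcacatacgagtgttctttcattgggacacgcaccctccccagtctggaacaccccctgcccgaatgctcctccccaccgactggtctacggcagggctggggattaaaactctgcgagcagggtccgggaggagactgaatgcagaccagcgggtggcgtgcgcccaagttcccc
In the S100b window none of the letters searched was found. The Slc1a3 window held the TATA box letters on the reverse strand, 161 bases before the start, and the Ednrb window held the Maf letters 242 bases before the start. Such letters are common. TGCTGA stood in 23.8% of the 42 windows of 24 glial genes (10 windows) and in 19.5% of all 32851 windows. ACAAAG stood in 19.0% of the glial windows against 18.7% of all, ACAATG in 4.76% against 12.6%, and TATAAA in 7.14% against 13.6%. The longer GCGTGGGCG was in 0 of the 42 glial windows and in 0.612% of all. None of these motifs contains another. Several windows come from 1 gene, and a match is a description of the letters, not a binding site.

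Among the transcription factors of the myelin programme, Egr2, which drives the myelin genes, measured between 7.89 and 8.54 in the control pools (median 8.32) and between 7.67 and 8.46 in the mutant pools (median 7.90). The groups overlapped along most of their range. The difference was -0.27 (SE 0.14, adjusted p = 0.87), with a 95% interval from -0.58 to 0.04. Pou3f1, the factor of the promyelinating stage that precedes Egr2, lay between 7.27 and 7.98 in controls (median 7.66) and between 7.15 and 8.31 in mutants (median 7.42). The single highest pool was a mutant, and the difference was -0.08 (SE 0.18, adjusted p = 0.97).

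Mbp, the basic protein that compacts the cytoplasmic faces of myelin, had 3 probes. The brightest measured 12.97 to 13.22 in the control pools (median 13.04) and 12.57 to 13.03 in the mutant pools (median 12.81). In 5 of the 6 mutant pools it lay below the lowest control pool, and 1 mutant pool lay within the control range. The difference was -0.25 (SE 0.08, adjusted p = 0.52), a level 0.746 to 0.953 times that of controls by the 95% interval. The other Mbp probes did not follow it: their differences were 0.08 (adjusted p = 0.94) and -0.0032 (adjusted p = 1.0). These dimmer probes overlapped between the groups, and which Mbp transcripts each probe reads was not analysed here.

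Pmp2, a fatty acid binding protein of peripheral myelin, had the largest difference of the 27 genes by size. It measured 7.66 to 8.78 in controls (median 8.16) and 6.56 to 8.32 in mutants (median 7.51), and 4 mutant pools lay below the lowest control. It was also the most variable between pools, with a control SD of 0.48. The difference was -0.64 (SE 0.27, adjusted p = 0.75), or 0.641 times the control level, with a 95% interval from 0.431 to 0.953.

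Pmp22, a membrane protein of compact myelin whose dosage is altered in human hereditary neuropathy, measured 12.92 to 13.16 in controls (median 12.99) and 12.94 to 13.25 in mutants (median 13.08). The ranges were nearly the same. Its difference was 0.06 (SE 0.08, adjusted p = 0.94), with a 95% interval from 0.932 to 1.17 times the control level, and the second Pmp22 probe gave 0.08. Mal and Pllp, tetraspan proteolipids that sort myelin membrane, were lower in the mutant mean without passing. Mal measured 9.69 to 10.22 in controls (median 10.01) and 9.57 to 10.04 in mutants (median 9.78), a difference of -0.20 (SE 0.10, adjusted p = 0.85), and its second probe gave -0.26. Pllp measured 7.29 to 7.92 in controls (median 7.77) and 7.02 to 7.83 in mutants (median 7.41), a difference of -0.30 (SE 0.15, adjusted p = 0.85). Both sets of ranges overlapped. Ncmap, a membrane protein of non-compact myelin, differed by -0.10 (SE 0.13).

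**Figure D2:**
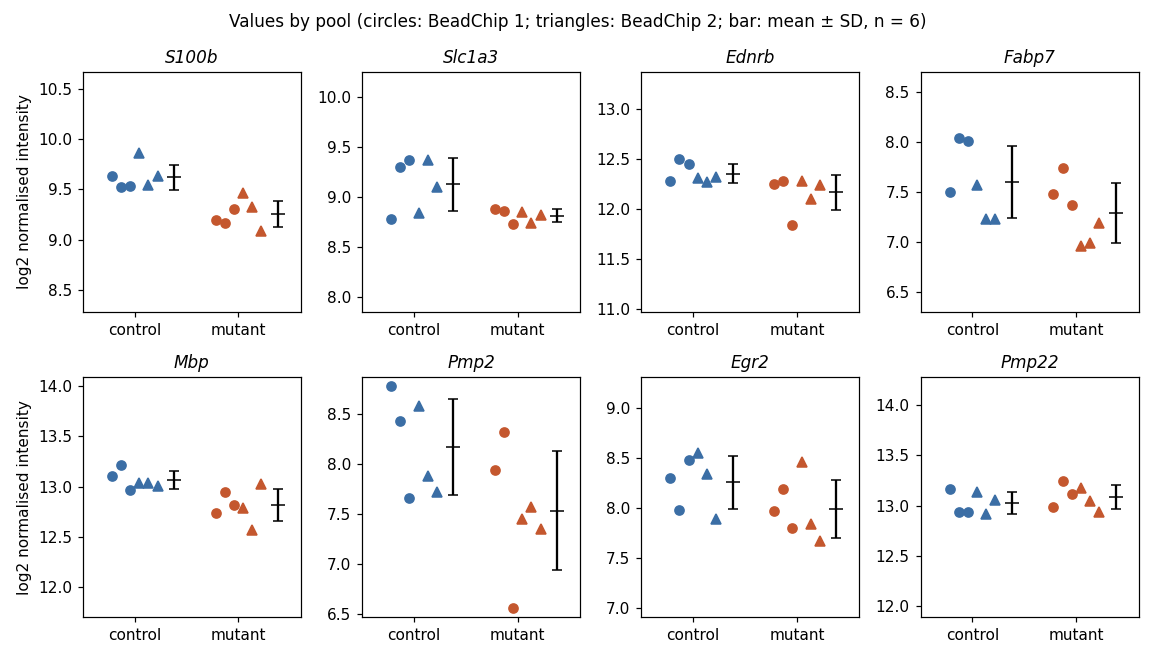
Normalised log2 intensity of single glial genes in each pool, control and mutant side by side, with the mean ± SD of each group (n = 6) as a bar and a symbol for each BeadChip. The genes are S100b, Slc1a3, Ednrb, Fabp7, Mbp, Pmp2, Egr2 and Pmp22. The 6 mutant pools of S100b all sit below the 6 control pools, while the groups overlap in the other genes drawn.

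The genes of the Schwann cell's contact with the axon and of its outer surface had 0 calls, against 0.235% of all probes tested. Mag, the adhesion molecule that faces the axon, lay between 8.36 and 9.17 in controls (median 8.94) and between 8.72 and 9.23 in mutants (median 8.89). Its difference was 0.02 (SE 0.13, adjusted p = 0.99). Drp2, which anchors the outer Schwann cell membrane to the basal lamina through dystroglycan, lay between 8.50 and 8.94 in controls (median 8.87) and between 8.49 and 8.78 in mutants (median 8.59). In 3 of the 6 mutant pools Drp2 lay just below the lowest control pool, and the difference was -0.20 (SE 0.09, adjusted p = 0.77). Gldn (gliomedin), which clusters sodium channels at nodes, differed by -0.12 (SE 0.11). Cldn19, the claudin of Schwann cell tight junctions, differed by -0.09 on its brighter probe and by -0.01 on the other.

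Ugt8a, which makes the myelin lipid galactosylceramide, measured 7.98 to 8.75 in controls (median 8.52) and 7.90 to 8.41 in mutants (median 8.30), a difference of -0.21 (SE 0.13, adjusted p = 0.89). Cnp, an enzyme of non-compact myelin cytoplasm, differed by 0.09 (SE 0.08) on its brighter probe and by -0.03 on the other. Dhh, the hedgehog ligand by which Schwann cells signal to the perineurium, lay between 9.93 and 10.35 in controls (median 10.22) and between 9.86 and 10.49 in mutants (median 9.98). A single mutant pool was the highest of all 12 for Dhh, and the difference was -0.13 (SE 0.11, adjusted p = 0.93). The gap junction genes were at or under the detection limit: Gjb1 (connexin 32) was detected in 3 control and 2 mutant pools and Gjc3 in 0 of 12.

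In the satellite and non-myelinating set, S100b, a calcium binding protein of glia, was the 1 gene of the 27 whose groups did not overlap, which 0.607% of all tested genes showed in this direction. It measured 9.52 to 9.86 in the control pools (median 9.59) and 9.09 to 9.46 in the mutant pools (median 9.25). The difference was -0.36 (SE 0.08, adjusted p = 0.14), or 0.777 times the control level with a 95% interval from 0.688 to 0.878. It was as large on each BeadChip, -0.34 and -0.39. Over all alternative settings the difference ran from -0.41 to -0.32 and the adjusted p from 0.071 to 1.0. S100b is made by myelinating Schwann cells as well as by satellite glia. These arrays of whole ganglia do not separate these sources from each other or from other cells, neurons included.

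Slc1a3, the glutamate transporter GLAST of satellite glia, measured 8.78 to 9.37 in controls (median 9.20) and 8.73 to 8.88 in mutants (median 8.83). The mutant pools were close together, with an SD of 0.06 against 0.26 in controls. Control pools 1 and 4, at 8.78 and 8.84, lay inside the mutant range, and the other 4 control pools lay above it. The difference was -0.31 (SE 0.11, adjusted p = 0.53). Glul, glutamine synthetase, the enzyme that converts glutamate after uptake, lay between 6.32 and 7.13 in controls (median 6.57) and between 5.84 and 6.86 in mutants (median 6.52). Its difference was -0.20 (SE 0.17, adjusted p = 0.93), with broadly overlapping groups.

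Ednrb, the endothelin receptor of satellite glia, had 3 probes, and all 3 were lower in the mutant mean without passing. The brightest measured 12.27 to 12.49 in controls (median 12.31) and 11.84 to 12.28 in mutants (median 12.25), and 4 mutant pools lay below the lowest control. Its difference was -0.19 (SE 0.09, adjusted p = 0.78), and the other probes gave -0.39 (SE 0.23) and -0.22 (SE 0.13). Atp1b2, a sodium pump subunit that also acts in glial adhesion, differed by -0.03 (SE 0.11).

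Fabp7, the brain lipid binding protein of satellite glia and glial progenitors, measured 7.23 to 8.04 in controls (median 7.54) and 6.97 to 7.74 in mutants (median 7.29). The difference was -0.31 (SE 0.17, adjusted p = 0.87) in overlapping groups. Apoe, the lipid carrier that satellite glia make in large amounts, ranged widely in both groups, from 10.94 to 12.17 in controls (median 11.88) and from 11.02 to 12.10 in mutants (median 11.58). Its difference was -0.18 (SE 0.22, adjusted p = 0.94), and macrophages also make Apoe. Sox2, a progenitor factor kept in satellite glia, measured 6.12 to 6.55 in controls (median 6.41) and 5.89 to 6.55 in mutants (median 6.32), a difference of -0.10 (SE 0.11, adjusted p = 0.94), and -0.03 on its second probe.

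The adhesion molecules gave no common sign. Cdh19, a cadherin of Schwann cell precursors and satellite glia, was dim, detected in 5 control and 4 mutant pools, and differed by -0.08 (SE 0.21). L1cam and Ncam1, which mark non-myelinating Schwann cells and are also carried by neurons and axons, differed by 0.08 (SE 0.17) and 0.11 (SE 0.09). L1cam was detected in 4 control and 5 mutant pools, and the second Ncam1 probe gave 0.05. Plekhb1, a membrane-associated protein with a pleckstrin homology domain, differed by -0.06 (SE 0.09). Gfap was detected in 0 of 12 pools.

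**Figure D3:**
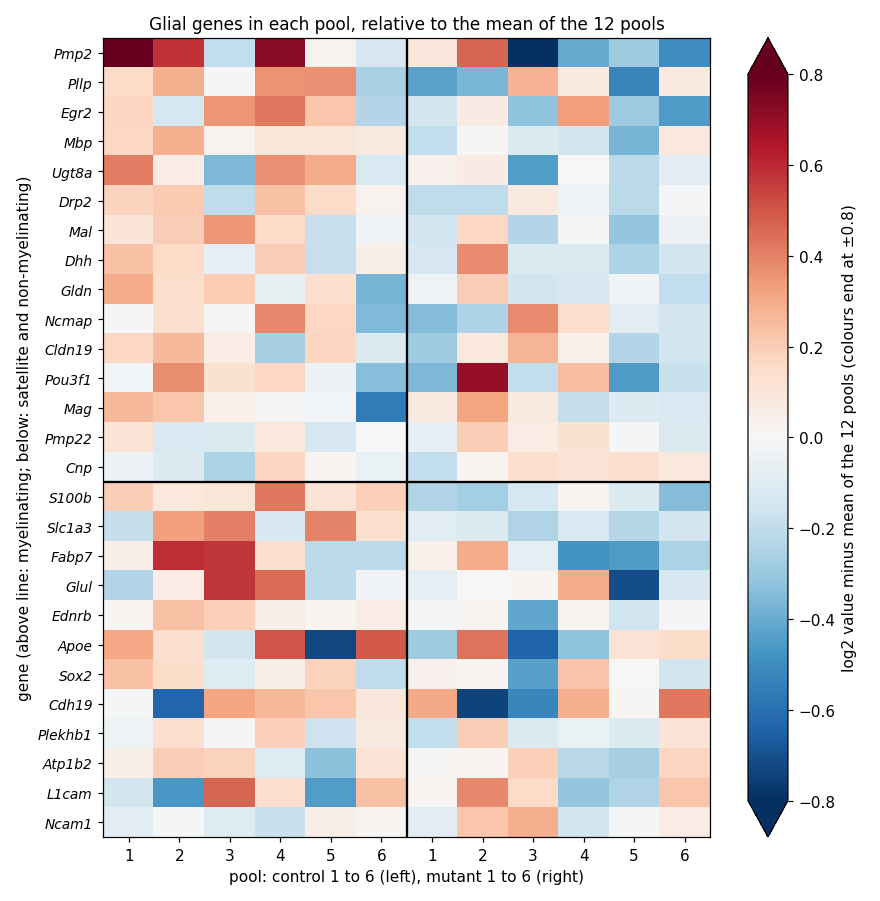
Each tested glial gene in each of the 12 pools, as its log2 intensity minus the gene's mean over all pools, with controls and mutants in separate blocks. Low values are spread over several pools, and no pool is lowest for most genes: mutant replicate 5 is lowest for 6 of 15 myelin genes and mutant replicate 3 for 3 of 12 satellite genes.

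Pools differed among themselves within each group. A score per pool, the mean over a set of each gene's log2 value minus its mean over all 12 pools, ran from -0.16 to 0.21 in controls and from -0.22 to 0.12 in mutants for the myelin set. Control replicate 6 scored -0.16, lower than 5 of the 6 mutants, and mutant replicate 2 scored 0.12, inside the upper control range. For the satellite set the scores ran from -0.09 to 0.20 in controls and from -0.18 to 0.04 in mutants, with control replicate 5 the lowest control. The groups overlapped in both sets. The lowest of the 12 values of a gene was in a mutant pool for 18 of 27 genes, and the highest in a control pool for 19 of 27. The same counts over all tested genes are not given here. Mutant replicate 5 held the lowest value for 6 of 15 myelin genes, while mutant replicate 2 and control replicate 4 each held the highest for 4 of 15.

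**Figure D4:**
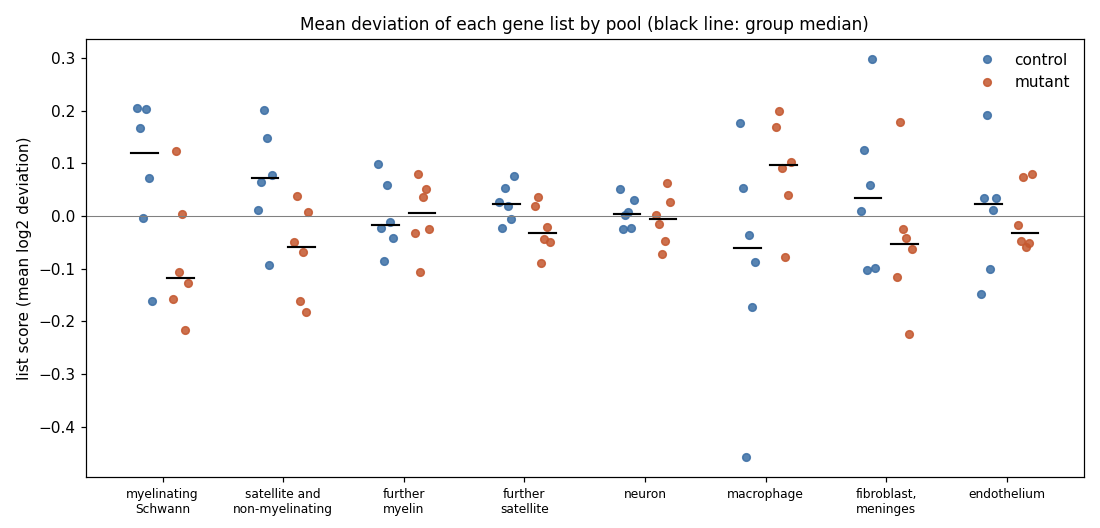
Score of the myelin and satellite sets and of 6 further gene lists in each pool (mean over the genes of the log2 value minus the gene's mean over all 12 pools), by group, with the group median as a line. Control scores reach down to -0.16 (myelin) and -0.09 (satellite) and lie within the mutant range there.

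The array identifiers place replicates 1 to 3 of both groups on 1 BeadChip and replicates 4 to 6 on another, so the comparison could be made within each. Of the 15 myelin genes 12 were below 0 on both BeadChips and 2 above on both. Of the 12 satellite genes 8 were below on both and 1 above on both. Shares over all tested genes are not given for these counts. Pmp2 gave -0.68 and -0.60, Mbp -0.26 and -0.23, and Egr2 -0.26 and -0.27. The genotype difference was tested for a change between BeadChips, and 0 glial genes had a limma p under 0.05 before adjustment, against 2.82% of all probes. The smallest was 0.24, with an adjusted p of 1.0. A limma test of the BeadChip itself, added after the values were seen, called 0% of all probes. The nearest glial gene to that threshold was Fabp7 (adjusted p = 0.23), with a difference of -0.50, second BeadChip minus first.

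**Figure D5:**
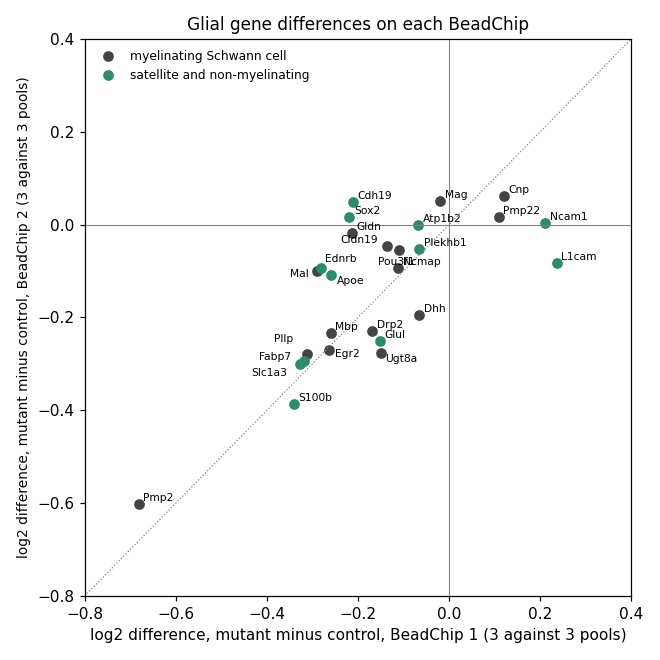
Log2 difference between mutant and control pools of each tested glial gene on BeadChip 1 (horizontal axis) against BeadChip 2 (vertical axis), 3 pools against 3 on each, with the line of equal differences. The 20 genes lower on both BeadChips lie at the lower left, with Pmp2 the farthest out.

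Further genes of the same pathways showed 0 calls in every list, against 0.235% of all probes tested. Their medians were nearer to 0 than those of both marker sets over all 12 pools. Of 32 tested further myelin and Schwann cell genes 0 were called and the median was -0.0024, on either side of 0 as single pools were left out. Those with the smallest p were Fa2h, the hydroxylase of myelin lipids, at -0.30 (SE 0.11, adjusted p = 0.63), and Emp3, at 0.32 (SE 0.15, adjusted p = 0.79). Of 27 genes of myelin lipid synthesis 0 were called and the median was 0.03, with Fa2h and Ugt8a the nearest to the threshold. Of 15 genes of Neuregulin and ErbB signalling 0 were called and the median was -0.05. There, Nrg1, the axonal ligand of the Schwann cell's ErbB receptors, was at -0.26 (SE 0.09, adjusted p = 0.58), and Gab1, an adaptor downstream of them, at 0.13 (SE 0.07, adjusted p = 0.87). At an unadjusted limma p under 0.05, 1 gene of each of these 3 lists was lower and 0 were higher. In the further myelin and the lipid list it was the same gene, Fa2h. Over all genes 3.87% were lower and 2.63% higher at that p.

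Of 14 genes of the node and paranode 0 were called, with a median of -0.11, which was -0.20 on BeadChip 1 alone, 0.03 on BeadChip 2 alone, -0.027 with array weights, -0.020 without mutant replicate 3 and -0.056 without control replicate 3. Kcna1, the axonal potassium channel next to the paranode, was at -0.52 (SE 0.13, adjusted p = 0.21), and the scaffold Dlg1 at -0.30 (SE 0.08, adjusted p = 0.34). Genes of immature and repair Schwann cells had 0 calls among 16 and a median of -0.04, whose sign was not stable. It was -0.12 on BeadChip 1 alone, 0.011 on BeadChip 2 alone, 0.025 with array weights, 0.022 without mutant replicate 3 and 0.0070 without control replicate 2. Jun, the factor of the repair state, was at -0.24 (SE 0.08, adjusted p = 0.45), and Tgfb1 at -0.37 (SE 0.11, adjusted p = 0.36). Among 17 further satellite glia genes 0 were called, the median was -0.04 (0.018 without mutant replicate 3), and Gja1 (connexin 43) and the proteoglycan Bcan were at -0.28 and -0.26 (adjusted p = 0.52 for both). At an unadjusted limma p under 0.05 the node list had 3 genes lower and 1 higher, and the repair list 2 lower and 1 higher. The further satellite list had 3 lower and 0 higher. The shares over all genes at that p were 3.87% lower and 2.63% higher, and 0.235% of all probes were called.

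Markers of the other cells of the sample were read beside these values, as sums of linear normalised intensities over a list. The brightest probes weigh most in such a sum. In the myelin set these were Mbp and Pmp22 (control means 13.06 and 13.02), and in the satellite set Ednrb and Apoe (12.35 and 11.76). The 19 neuron genes had a median difference of 0.02 with 0 called, against 0.235% of all probes tested. Their sum ran from 108452 to 115933 in controls and from 108374 to 112008 in mutants. Nefh, the heavy neurofilament of large myelinated neurons, was at -0.30 (SE 0.07, adjusted p = 0.13). Isl1, the gene that drives Cre in the mutants, was at -0.30 (SE 0.13, limma adjusted p = 0.77). The sum of the myelin set ran from 21532 to 24361 in controls and from 19354 to 23889 in mutants, and that of the satellite set from 11332 to 14394 and from 10139 to 14016. Of 9 oligodendrocyte markers 2 were tested, including Mag of the myelin set. Mog, Mobp, Opalin, Olig2, Nkx2-2, Ermn and Sox8 were not detected on enough arrays. Of 6 markers of cord astrocytes 4 were tested, with a median of -0.07 and 0 called. That median was 0.010 with array weights and 0.0070 without mutant replicate 3. At an unadjusted limma p under 0.05, 2 neuron genes (Nefh and Isl1) and 1 astrocyte gene were lower and 0 were higher. The astrocyte gene was Gja1, which like most of the tested astrocyte genes is also in the further satellite list. Over all genes 3.87% were lower and 2.63% higher at that p.

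The 13 macrophage genes had a median of 0.22 with 0 called, which was 0.14 on BeadChip 2 alone and 0.11 without control replicate 3. Their sum ran from 1610 to 2570 in controls and from 2160 to 2693 in mutants. Lyz2, the lysozyme of myeloid cells, was at 0.56 (SE 0.13, adjusted p = 0.14). The 4 tested neutrophil genes had a median of 0.95 with 0 called, and their sum ran from 205 to 616 in controls and from 387 to 1975 in mutants. Medians were -0.09 over 11 fibroblast genes (-0.14 to -0.024 with 1 pool left out, nearest to 0 without mutant replicate 1), -0.02 over 8 endothelial genes and 0.05 over 6 pericyte genes, each with 0 called and 0 at an unadjusted limma p under 0.05. At that p the macrophage list had 1 gene lower and 3 higher, and the neutrophil list 0 lower and 3 higher. The shares over all genes were 3.87% lower and 2.63% higher, and 0.235% of all probes were called. Of 5 tested skeletal muscle genes 1 was called lower, the myosin Myh8, at -1.25 (SE 0.18, adjusted p = 0.008), and the list's median was 0.07. The part of these cells in the glial values was not tested.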

How the data were processed

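The deposited intensity values are GenomeStudio output (version not given), per the submitters' processing notes. They were neither background-subtracted nor normalised: array medians lay between 86.1 and 99.6. Per the file headers, each array has a column of detection p-values. A deposited table of processed intensity values of the same 12 arrays, with its method not given in the sources used here, ranked probes like the raw values and served as an alternative.

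Log2 values came from neqc in limma 3.58.1 under R 4.3.3 (normexp by detection p-value, offset 16, quantile normalisation). The filter kept 13177 of 25697 probes, those with a detection p under 0.05 on at least 6 of 12 arrays. The platform annotation named 1 symbol for 23978 probes and did not list 1719. A gene is its brightest tested probe, 9223 in all.

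Groups and replicate numbers came from the sample titles. Genotype was fitted with limma (lmFit and eBayes), with Benjamini-Hochberg adjustment over all tested probes and a threshold of 0.05. The steps were tested on simulated data. Intervals are 95% limma intervals. Their width follows the spread between pools and the number of arrays. Deviations of same-numbered pools had correlations of -0.12 to 0.19. Differently numbered pools were not compared, so these values cannot tell whether the numbers pair the pools. The main fit left them unpaired. Alternatives changed the offset, scaling, filter, BeadChip or replicate block, weights, moderation and pools used.

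The members, their split into myelin and satellite sets, and the further lists were chosen with earlier results of these data known. All members are named whatever their result. Maf, Isl1, Eif2s3y and undetected oligodendrocyte markers are named apart. Other genes named are up to 4 called genes of a list or, with none called, some of those with the smallest p. Some lists have no gene named.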

Additional observations from a re-analysis of the deposited data

Results flagged for a closer look

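Among 78 sets of 6 pools (37 glial probes and both scores, in each group), 5 held a pool past Dixon's 95% critical value. The ratio compared with it was the pool's distance from the nearest other pool, divided by the range of the 6 pools. Chance alone gives about 1 in 20, or 4 here. Mag in control replicate 6 was the lowest control at 8.36, with the next at 8.89. Cnp in mutant replicate 1 was the lowest mutant at 8.71, with the next at 8.93. Dhh in mutant replicate 2 was the highest mutant at 10.49, with the next at 9.998. S100b in control replicate 4 was the highest control at 9.86, with the next at 9.63. Cdh19 in control replicate 2 was the lowest control at 5.10, with the next at 5.72.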

How the results depend on the processing

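Under 24 alternative settings, 0 of 647 values of the 27 glial genes had an adjusted p under 0.05 in limma. The myelin median stayed between -0.22 and -0.10 and the satellite median between -0.21 and -0.075. Another sign was seen 16 times, in 6 genes whose difference was at most 0.10 in size. On BeadChip 1 alone Mag turned to -0.020. On BeadChip 2 alone Sox2 turned to 0.016, Cdh19 to 0.048 and L1cam to -0.082. With array weights Mag turned to -0.025 and Cdh19 to 0.074. Leaving out 1 pool in turn gave -0.094 to 0.069 for Mag, -0.23 to 0.00070 for Pou3f1, -0.22 to 0.059 for Cdh19, -0.0088 to 0.18 for L1cam and -0.10 to 0.016 for Atp1b2. The cause was not tested.

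Of all probes, 28 were called lower and 3 higher. BeadChip 1 alone gave 4 and 0, and BeadChip 2 alone 1 and 0, with fewer arrays in each. Offset 50 and detection at p under 0.01 each gave 1 higher, and robust moderation 5. Leaving out 1 pool gave 20 to 34 lower and 1 to 3 higher. Same-numbered pools lay on the same BeadChip, and the titles do not say whether they were otherwise paired. With the replicate block, 21 probes were lower and 2 higher, with 0 glial probes called and the same medians. The node and paranode median was -0.20 and 0.029 on BeadChips 1 and 2, and -0.12 to -0.020 with 1 pool left out. That of the further satellite genes was -0.12 on BeadChip 1, and -0.092 to 0.018 with 1 pool left out. The neuron median was -0.033 on BeadChip 1, and robust moderation called 1 neuron gene. The muscle median was -0.15 on BeadChip 2, and 0 muscle genes were called on either BeadChip alone.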
